A study of Mus musculus with 5 samples.

Results

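The genes Cd4, Cd8a and Cd8b1 encode the CD4 and CD8 co-receptors. They were found by gene symbol in a table of RefSeq transcripts and gave 3 rows for 3 genes, of 26531 rows and 22098 symbols. The rows are NM_013488 for Cd4, NM_001081110 for Cd8a and NM_009858 for Cd8b1. The members were chosen by name with their RPKM values in these libraries known, above all the dF1 and dF4 levels of Cd4 and Cd8a, so their levels and differences are given as a description, with no test.

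RNA was sequenced from bone marrow cells of C57BL/6 mice aged 6 to 7 weeks, sorted as Hardy fraction A, the earliest stage of Hardy's B lineage scheme, without removing other lineages. The 5 libraries were 2 of wild-type mice (wt), 2 of Ikaros_ZnF1-/- mice (dF1) and 1 of an Ikaros_ZnF4-/- mutant (dF4), which the submitters describe as having low coverage. Ikaros, encoded by Ikzf1, is a DNA-binding protein of lymphoid development, and the mutants lack zinc finger 1 or zinc finger 4 of it. The comparison asks which transcripts depend on each finger. The design text names biological replicates for dF1. Whether the wt replicates are separate animals is not stated, so each p-value below reflects the spread among libraries, which in wt may be technical.

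CD4 and CD8 are surface proteins that bind the constant parts of MHC molecules beside the T cell receptor and bring the kinase Lck to it. CD4 binds MHC class II. CD8 binds MHC class I and is either a pair of CD8 alpha chains or an alpha and a beta chain, encoded by Cd8a and Cd8b1, and the beta chain needs the alpha chain to reach the surface. In the mouse, helper and cytotoxic T cells carry CD4 and CD8 alpha-beta, while subsets of dendritic cells carry CD4 or CD8 alpha without a T cell receptor. Ikaros is known to bind regulatory elements of the Cd8 locus and has been tied to silencing of Cd4 in thymocytes.

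The libraries differed in the summed levels of cell type markers. Values are RPKM, reads scaled to transcript length and library size. The labels call the cells sorted proB cells. In the wt and dF1 libraries, 15 proB marker genes summed to between 830.4 and 1179.1 RPKM, and 17 plasmacytoid dendritic cell (pDC) markers to between 5819.4 and 7434.2. Pax5, the B lineage commitment factor, lay between 5.4 and 9.4 RPKM there. In dF4 the proB sum was 1557.5 RPKM and the pDC sum 1119.6, and 12 neutrophil markers summed to 33306 RPKM, against 217.6 to 1066.3 in the other libraries. Across transcripts, dF4 correlated with the other libraries at 0.74 to 0.774, and those among each other at 0.965 to 0.983. The low values of dF4 gave a depth of about 597000 reads. Depth is unknown for the other libraries. In such bulk samples, fewer cells of a type and less RNA per cell cannot be told apart.

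Of the co-receptor genes, only the Cd8a row was matched in a table of RefSeq promoters of build GRCm38.p6. Cd4 and Cd8b1 had no entry. The sequence is shown because Cd8a had the largest dF1 difference of the 3 genes. It holds the 250 bases before the gene's start, on the plus strand at chr6:71373177-71373426. Capitals mark the letters GGGAA, the core of Ikaros binding sites, searched on both strands.
Cd8a: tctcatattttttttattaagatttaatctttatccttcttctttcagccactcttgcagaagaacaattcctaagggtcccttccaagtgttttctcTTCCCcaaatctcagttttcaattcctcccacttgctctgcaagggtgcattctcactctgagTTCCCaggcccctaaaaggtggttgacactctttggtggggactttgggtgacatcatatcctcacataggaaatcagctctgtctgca
The core occurred at 2 places, both on the minus strand and hence printed as TTCCC, from -152 to -148 and from -89 to -85 relative to the start. Of 32851 promoter entries, 56.2% held the core at least once in the same window and 21.2% held it at least as often as Cd8a. The letters TGTGGT, bound by Runx proteins, were in 14% of the entries and at 0 places in this window. A match to such short letters is a description and does not show binding.

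Cd8a, the CD8 alpha chain, was at 131 and 94.6 RPKM in dF1 replicates 1 and 2, compared with 25.6 and 27.8 in wt and 22.6 in dF4. Both dF1 libraries lay far above the others, and the groups did not overlap. The means were 26.7 ± 1.56 RPKM for wt (SD, n = 2) and 112.8 ± 25.7 for dF1 (SD, n = 2), a ratio of 4.22. On the log2(RPKM + 1) scale, which understates changes of low transcripts, the difference was 2.02 (SE 0.18). Each SE here and below comes from a moderated fit (limma) that draws it toward the spread of other transcripts. The pooled replicate SD of Cd8a itself on this scale was 0.24. Placed among all transcripts by level, Cd8a moved from percentiles 75.6 and 79.6 in wt to 97.7 and 95.8 in dF1.

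Cd4, the MHC class II co-receptor, was at 385.5 and 272.4 RPKM in dF1, compared with 146.3 and 154.1 in wt and 3.2 in dF4. The order of the groups was dF1, wt and then dF4, with no overlap. The means were 150.2 ± 5.52 RPKM for wt (SD, n = 2) and 328.9 ± 80 for dF1 (SD, n = 2). Their ratio was 2.19, and the log2 difference was 1.1 (SE 0.20, pooled replicate SD 0.25). Cd4 was already among the abundant transcripts of wt, at percentiles 98 and 98.4, and was at 99.5 and 99.3 in dF1. In dF4 it was at percentile 18.8.

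Cd8b1, the CD8 beta chain, was at 29.9 and 15.6 RPKM in dF1, compared with 25.6 and 20.5 in wt and 15.3 in dF4. The dF1 libraries lay on either side of the wt libraries, so the groups overlapped and no difference exceeded the spread. The means were 23.1 ± 3.61 RPKM for wt (SD, n = 2) and 22.8 ± 10.1 for dF1 (SD, n = 2). The log2 difference was -0.08 (SE 0.32, pooled replicate SD 0.47). It has no stable sign, since it became 0.07 when wt replicate 1 was left out, and 0.37 when dF1 replicate 2 was. The dF1 libraries thus held more of the alpha chain transcript, while the dF1 mean of the beta chain transcript lay between its wt values.

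**Figure D1:**
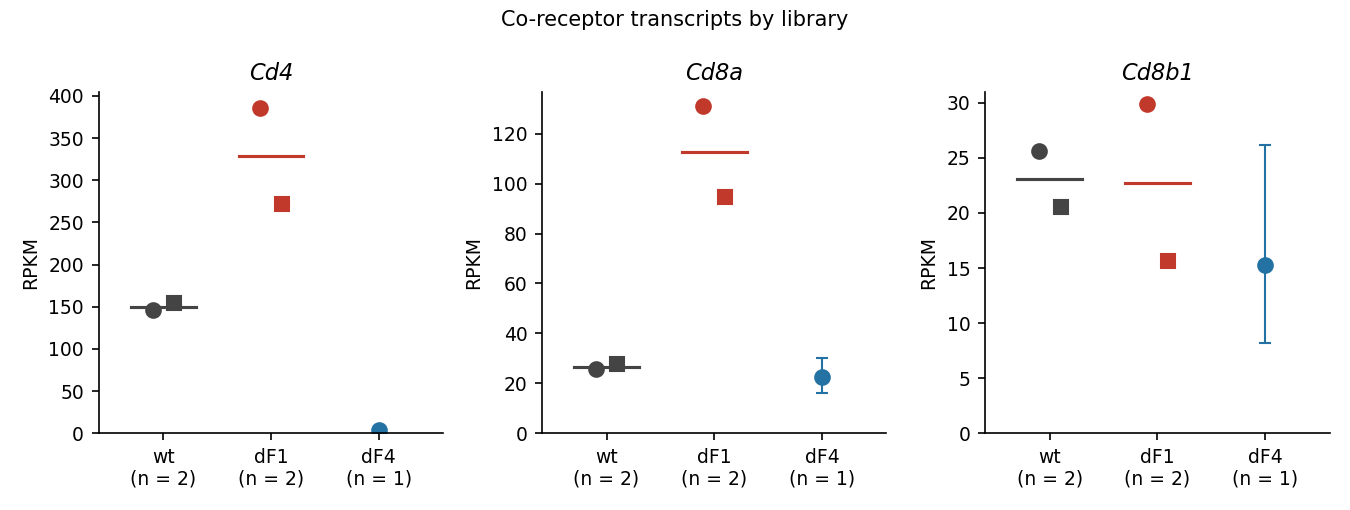
RPKM (vertical axes, each from 0) of Cd4, Cd8a and Cd8b1 in wt, dF1 and dF4; circles are replicate 1, squares replicate 2, horizontal lines group means, and the dF4 bars are 95% Poisson counting intervals. Both dF1 libraries lie above both wt libraries for Cd4 (385.5 and 272.4) and Cd8a (131 and 94.6), and on either side of them for Cd8b1 (29.9 and 15.6).

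Not overlapping is common with 2 libraries a group. Of the 12215 transcripts whose mean over the libraries reached 1 RPKM, 16.8% had both dF1 libraries above both wt libraries, and 17.9% had both below, 34.7% in all. With a log2 difference of at least 1 as well, the dF1 libraries were higher for 0.598%, a set that includes Cd8a and Cd4. By size of the difference, Cd8a was the 10th and Cd4 the 55th highest of the 12215, and Cd8b1 stood at 8113. The median over all transcripts was 0.01. With limma, 0 of the 12215 (0%) passed an adjusted p of 0.05 in either direction, and 875 had an unadjusted p under 0.05. These ranks describe values that were known when the genes were proposed.

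Within dF1, replicate 1 was the higher library for all 3 genes. The log2 difference of replicate 2 minus replicate 1 was -0.50 for Cd4, -0.47 for Cd8a and -0.90 for Cd8b1, against a median of 0.05 over all transcripts. In wt the same difference was 0.07 for Cd4, 0.12 for Cd8a and -0.31 for Cd8b1, against a median of -0.08.

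Because RPKM is per length, the 3 genes can be set beside each other within a library. The ratio of Cd8a to Cd8b1 RPKM was 4.38 and 6.06 in dF1 against 1 and 1.36 in wt and 1.48 in dF4. By RPKM at the deposited lengths, the alpha and beta chain rows were near parity in wt, and the alpha chain row was higher in both dF1 libraries. The dF4 ratio rests on about 42 and 13 reads, and no interval was computed for it. The ratio of Cd4 to Cd8a RPKM was 2.94 and 2.88 in dF1 against 5.71 and 5.54 in wt, and replicates lay closer in this ratio than in the RPKM of either gene in dF1. In dF4 it was 0.142, so Cd8a exceeded Cd4 there.

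**Figure D2:**
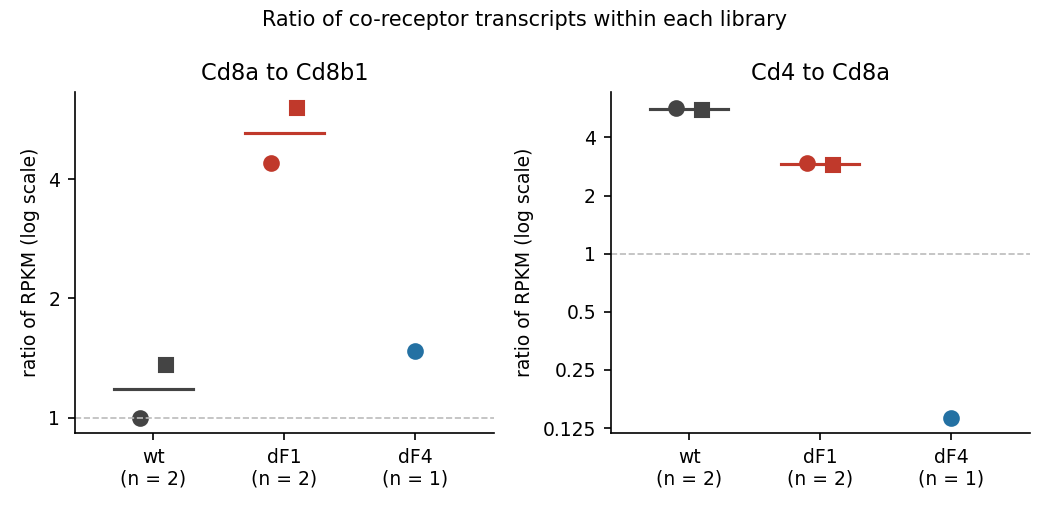
Ratio of RPKM values within each library on a log scale, Cd8a to Cd8b1 at left and Cd4 to Cd8a at right; circles are replicate 1, squares replicate 2, solid lines group means and the dashed line a ratio of 1. The Cd8a to Cd8b1 ratio is 4.38 and 6.06 in dF1 against 1 and 1.36 in wt, and the Cd4 to Cd8a ratio of dF4, 0.142, is the one value below 1.

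In the dF4 library the 3 genes parted in another way. There is no replicate and hence no test. Cd4 rested on about 6 reads, with a 95% Poisson interval of 1.19 to 7.04 RPKM that covers counting error only. The wt mean was 46.9-fold above it, with a counting interval of 21.3 to 127. Cd8a rested on about 42 reads (16.2 to 30.3 RPKM) and Cd8b1 on about 13 (8.15 to 26.2). Both wt values of each CD8 gene lay inside these intervals, so no difference from wt was detectable at this depth for Cd8a or Cd8b1. By a rule of lying outside both wt libraries with a log2 difference of at least 1, 12.9% of the 12215 transcripts were lower in dF4 and 13.4% higher. Cd4 met it, with a difference of -5.17, the 14th lowest of all. The differences of Cd8a (-0.23) and Cd8b1 (-0.55) did not. The dF1 and dF4 differences use the same wt libraries.

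The partners of the co-receptors in T cells were counted from a list of 23 genes of CD3 and T cell receptor signalling. In dF1, 0 of 23 passed in either direction (limma, adjusted p of at least 0.263, with 5 at an unadjusted p under 0.05), 7 had both dF1 libraries above wt (30.4%, beside 16.8% of all transcripts) and 3 had both below (17.9% of all). The median difference was 0.23, against 0.01 over all transcripts, and it was -0.09 without wt replicate 2. Lck, the kinase that both co-receptors bind, was at 158.1 and 136.5 RPKM in dF1, compared with 148.6 and 83.4 in wt and 206.3 in dF4, with overlapping wt and dF1 groups. Cd3e, a signalling chain of the T cell receptor, was at 20.8 and 19.5 RPKM in dF1, compared with 13.9 and 12.6 in wt and 66.1 in dF4, and did not pass between dF1 and wt (log2 difference 0.57, limma adjusted p = 0.439).

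The T cell markers went several ways beside Cd4 and Cd8a. Zap70, the kinase recruited by CD3 chains, was at 31.2 and 37.1 RPKM in dF1 compared with 26.1 and 15.9 in wt. The surface receptor Cd6 was at 2.1 and 2.5 in dF1 compared with 5.1 and 6 in wt, and the adaptor Sit1 at 1.5 and 1.6 against 4 and 4.1. Neither passed (limma adjusted p = 0.302 and 0.263). Themis, a protein of thymocyte selection, was at 0.3 to 0.6 RPKM in the wt and dF1 libraries, and Bcl11b, the T lineage commitment factor, at 0.4 to 0.5. The list summed to 1370.7 and 1304.8 RPKM in dF1 against 1384.2 and 934.1 in wt and 1648 in dF4. Its largest terms in dF1 replicate 1 were Ptprc (370.3), Fyn (214.5), Thy1 (171.3) and Lck (158.1). The proB list also holds Ptprc, so the sum does not measure T cells alone.

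Cd8a stood at 6.3 and 4.85 times the Cd3e RPKM in dF1, against 1.84 and 2.21 times in wt and 0.342 times in dF4. For Cd8b1 these ratios were 1.44 and 0.8 in dF1, against 1.84 and 1.63 in wt and 0.231 in dF4. In dF4, 9 of the 23 list genes counted as higher than wt (beside 13.4% of all transcripts). Of the list, 2 counted as lower, Fyn and Trat1 (beside 12.9% of all). Trat1 was at 2 and 0.5 RPKM in wt and listed at 0 in dF4, where 1 read equals 2.43 RPKM. At this depth the 0 does not show a decrease of Trat1. Themis was at 6.3 RPKM and Bcl11b at 6.1 in that library, both above their wt values, and Cd4 was at 3.2. The part of T cells in the co-receptor values was not tested.

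Dendritic cell markers were counted because subsets of these cells carry Cd4 or Cd8a. Of 17 pDC markers, 0 passed between dF1 and wt (limma, adjusted p of at least 0.451, with 4 at an unadjusted p under 0.05). Of them, 2 had both dF1 libraries above wt (11.8%, beside 16.8% of all transcripts) and 7 below (beside 17.9% of all), with a median of -0.14. Siglech, a pDC lectin, was at 785.2 and 807.3 RPKM in dF1 compared with 936.2 and 838.4 in wt. The ratio of Cd4 to Siglech RPKM was 0.491 and 0.337 in dF1 against 0.156 and 0.184 in wt. The pDC marker sum was 5819.4 and 6308.7 RPKM in dF1 against 6344 and 7434.2 in wt. The part of pDC in the dF1 values of Cd4 was not tested.

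In dF4, 16 of the 17 pDC markers counted as lower (beside 12.9% of all transcripts), with a median of -2.73. Siglech was at 5.5 RPKM there, the chemokine receptor Ccr9 at 1.9 against 132.5 and 128.4 in wt, and Cd300c was listed at 0. Cd4 was low in the same library. The part of pDC in the low Cd4 value was not tested.

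The CD8 positive conventional dendritic cells had 15 list genes, of which 11 passed the level filter. Xcr1, the chemokine receptor that defines them, was at 0.1 to 0.2 RPKM in the wt and dF1 libraries and listed at 0 in dF4. Itgae and Tlr3 were at 0.5 or below in wt and dF1, and Batf3, a factor these cells require, at 0.1 to 0.6. Clec9a, their lectin receptor that pDCs also carry in the mouse, was at 11.3 and 10.5 RPKM in dF1, compared with 36.5 and 37.4 in wt and 2.5 in dF4. Its difference of -1.67 (SE 0.12) did not pass (limma adjusted p = 0.126), though it passed with a filter at 5 RPKM (0.0174), with robust variances (0.00711) and with no filter (0.0151). It was the one gene of the 8 lists called under any setting tried. Of the 11 genes, 0 passed and 4 had an unadjusted p under 0.05. The list had 1 gene with both dF1 libraries above wt (9.1%, beside 16.8% of all transcripts) and 4 below (beside 17.9% of all). The list median was -0.09, and the list summed to 1329.2 and 1674.3 RPKM in dF1 against 1562.3 and 1599.1 in wt and 495.1 in dF4. That dF4 sum does not describe the whole list. In dF4, 4 of the 11 counted as higher than wt (beside 13.4% of all transcripts) and 3 as lower (beside 12.9%), with a median of 0.31. Clec9a, Itgax (0.4 RPKM) and Irf8 (215.8 RPKM) were the lower genes. The higher genes included Cd24a, at 46.1 RPKM against 11.5 and 10.1 in wt, and Batf3, at 4.7 on about 2 reads. Other genes of the list were abundant, and pDCs express some of them too. Itgax, which encodes CD11c, was at 70.8 and 89 RPKM in dF1 compared with 98.5 and 118.5 in wt, and the factor Irf8, which the pDC list also holds, at 1019.5 and 1359.5 compared with 1190.3 and 1317.2. Snx22 was at 63.8 and 55.8 in dF1 and 69.2 and 51.5 in wt. The part of these cells in the Cd8a values was not tested.

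NK cell markers moved with the libraries as well. Of 14, 5 had both dF1 libraries above wt (35.7%, beside 16.8% of all transcripts) and 0 below (beside 17.9% of all). The median was 0.51, and 0 passed (limma, adjusted p of at least 0.596, with 1 at an unadjusted p under 0.05). The list summed to 2478.4 and 2220.9 RPKM in dF1 against 2223.5 and 1002.5 in wt, and without wt replicate 2 its median was -0.01. The granule protease Gzma was at 634.1 and 504.2 RPKM in dF1 compared with 356.2 and 195.5 in wt. The neutrophil list had a median of -0.70 and differed between replicates of a genotype, by 1.23 in wt and 1.96 in dF1. That median was -1.16 without wt replicate 1, -0.02 without wt replicate 2 and -1.62 without dF1 replicate 2, and its sign turned without dF1 replicate 1 (0.34). The part of these cells in the co-receptor values was not tested.

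**Figure D3:**
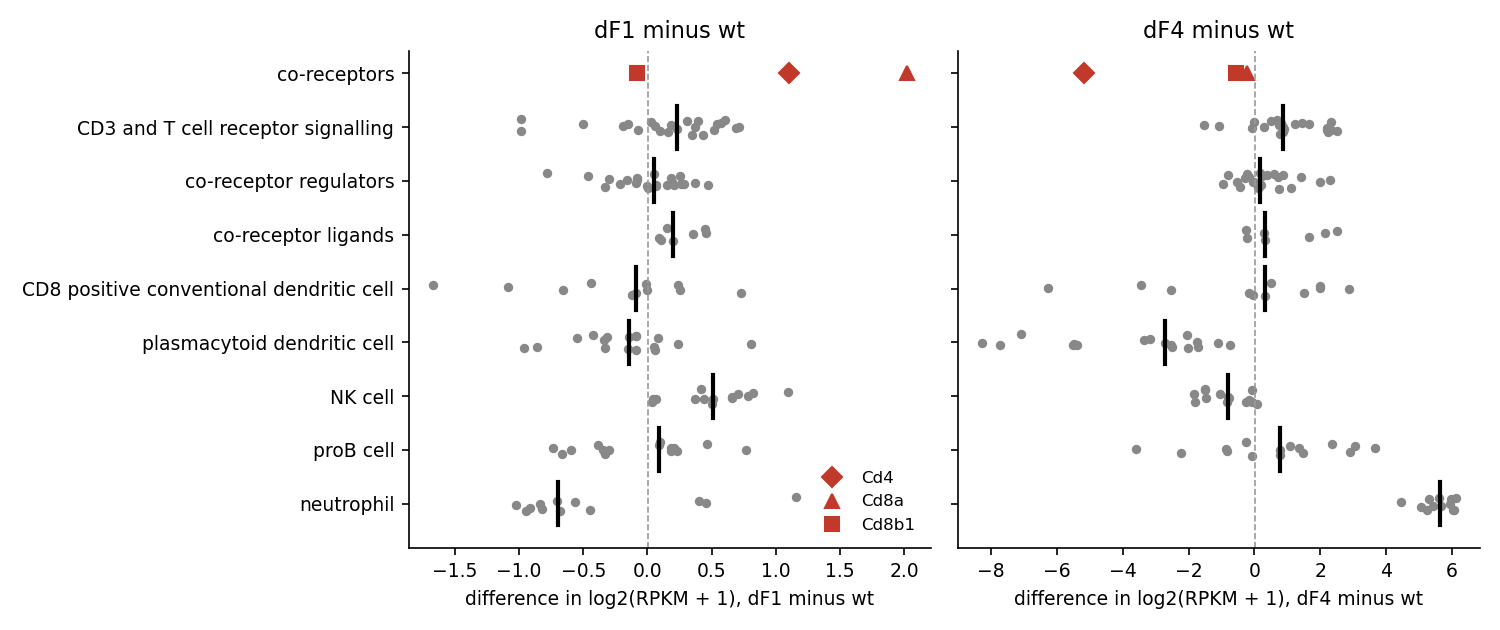
Difference in log2(RPKM + 1) from wt for dF1 at left and dF4 at right, on separate horizontal scales; red symbols are the co-receptor genes, grey points the tested genes of each list, black bars list medians and the dashed line the median of all transcripts. Cd8a (2.02) lies beyond every listed gene in dF1, and Cd4 (-5.17) lies in dF4 within the range of the pDC markers, whose median is -2.73.

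Known regulators of the co-receptor genes showed no call. Of 23 listed, 0 passed between dF1 and wt (limma, adjusted p of at least 0.526, with 3 at an unadjusted p under 0.05). Of them, 5 had both dF1 libraries above wt (21.7%, beside 16.8% of all transcripts) and 6 below (beside 17.9% of all), and the median was 0.05. Zbtb7b, which encodes ThPOK of the CD4 lineage, was at 8.2 and 9.7 RPKM in dF1 compared with 10.3 and 8.7 in wt. Runx3, which silences Cd4 in CD8 lineage cells, was at 44.2 and 42.5 RPKM in dF1 compared with 39.7 and 36 in wt (log2 difference 0.19, limma adjusted p = 0.793). Runx1, which acts on the Cd4 silencer in early thymocytes, was at 13.9 and 14.7 in dF1 against 17.7 and 18.8 (log2 difference -0.33, limma adjusted p = 0.681). Ikzf1 itself was at 182.2 and 182.1 RPKM in dF1, compared with 175.8 and 141.1 in wt and 237.7 in dF4, a value over the whole transcript that does not check the deleted finger.

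Of the other regulators named here, none passed. Tox, a factor of CD4 lineage development in the thymus, was at 4.1 and 2.9 RPKM in dF1 compared with 8.3 and 5.3 in wt (log2 difference -0.78, limma adjusted p = 0.65), and Myb, a progenitor factor, at 46.4 and 42.9 against 59 and 65.2 (-0.47, 0.526). Gata3, needed for CD4 T cells, was at 6.2 and 5.9 in dF1 against 5 and 3.3. Chd4, the Mi-2 beta remodeller found with Ikaros, was at 92.9 and 109.1 RPKM in dF1 compared with 100.9 and 92 in wt.

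Among the ligands, H2-T3, which encodes a nonclassical class I molecule bound by CD8 alpha pairs, was listed at 0 in every library. Of the 7 ligand genes tested, 0 passed (limma, adjusted p of at least 0.734, with 0 at an unadjusted p under 0.05). Of them, 4 had both dF1 libraries above wt (57.1%, beside 16.8% of all transcripts) and 0 below (beside 17.9% of all), and the median was 0.20. H2-Aa, a class II chain bound by CD4, was at 562.7 and 443.4 RPKM in dF1, compared with 406 and 325.7 in wt and 1140.3 in dF4. The class I chain H2-K1 was at 928 and 780.4 in dF1 compared with 835.5 and 660.7 in wt, and its groups overlapped.

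None of the neighbouring genes with a row, Cd8b1 included, was higher in both dF1 libraries than in both wt libraries, as Cd4 and Cd8a were. On chromosome 6, the RefSeq order of protein-coding genes puts Cd8b1 next to Cd8a, and neither Cd4 nor Cd8a overlaps a neighbour in that table. Gpr162, an orphan receptor gene next to Cd4, was at 6.6 and 6.3 RPKM in dF1, compared with 16.3 and 23.1 in wt and 0.6 in dF4. It lay lower in both dF1 libraries while Cd4 lay higher. The difference was -1.46 (SE 0.20) and did not pass (limma adjusted p = 0.215), but passed with a filter at 5 RPKM (0.0384) and with robust variances (0.0302). Beyond it, P3h3, a collagen-modifying enzyme listed as Leprel2, was at 1.4 RPKM in both wt libraries and at 0.1 and 0.2 in dF1, below the level filter and not tested.

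On the other side of Cd4, Lag3, an inhibitory receptor that binds MHC class II and is structurally related to CD4, was at 73.3 and 52.8 RPKM in dF1, compared with 78 and 107.5 in wt and 27.5 in dF4. Both dF1 values lay below wt. Its difference of -0.55 (SE 0.23) did not pass (limma adjusted p = 0.71). Ptms was at 200.9 and 229.2 RPKM in dF1 compared with 218 and 339.1 in wt, and Mlf2 at 39.4 and 55.3 against 44.1 and 53.5, both with overlapping groups. Gnb3, the third gene on the Gpr162 side, was listed at 0 in every library.

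Around Cd8a, 4 neighbours other than Cd8b1 had a row, and their dF1 differences lay close to 0. Rmnd5a was at 35.7 and 38.6 RPKM in dF1 compared with 36.1 and 32.4 in wt, Krcc1 at 40.2 and 44 against 42 and 34.5, Rnf103 at 7.9 and 6.7 against 9.3 and 7.8, and Chmp3, listed as Vps24, at 15.3 and 18.4 against 16.6 and 15.4. The groups overlapped for all 4. The sixth neighbour by the RefSeq order, Gm1070, was not analysed here.

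**Figure D4:**
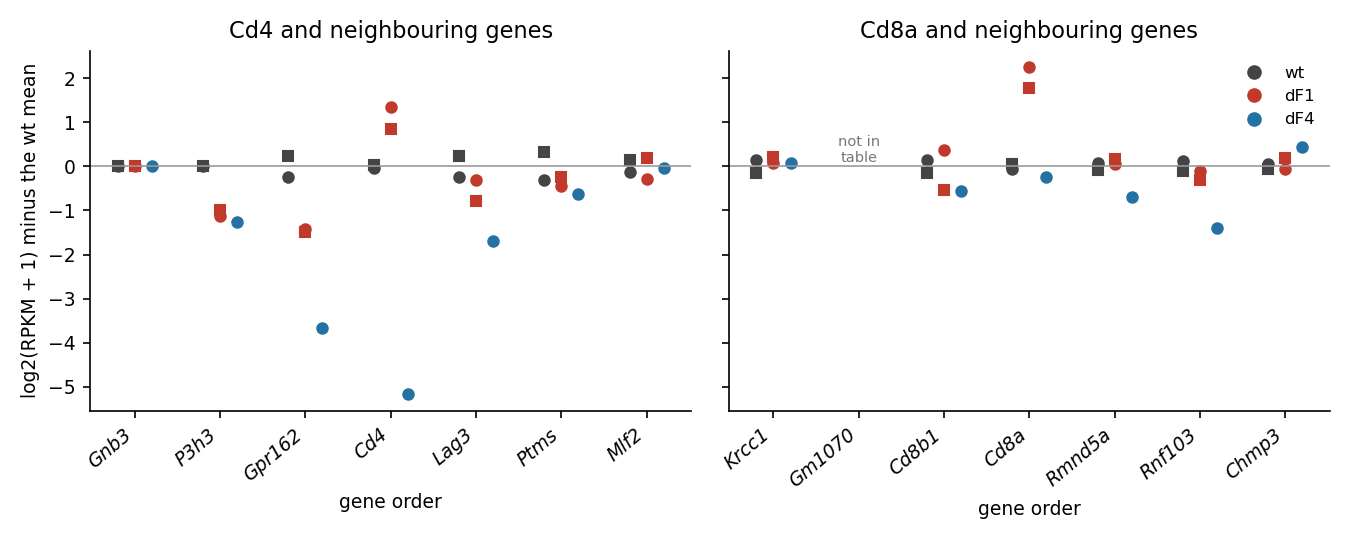
log2(RPKM + 1) minus the wt mean (vertical axis) for Cd4 and Cd8a and the 3 protein-coding genes on either side, in chromosomal order and not to distance; circles are replicate 1 and squares replicate 2 of wt, dF1 and dF4. In dF1, Cd4 (1.1) lies above the wt mean beside Gpr162 (-1.46) below it, and Cd8a (2.02) beside neighbours with overlapping groups.

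The transcripts whose pattern over the 5 libraries was most like each gene were ranked by the root mean square difference of log2(RPKM + 1) after centring each transcript on its own mean. The libraries are shared and only 5, so this is a description. For Cd8a the nearest were Pgam2, a muscle type phosphoglycerate mutase (0.261), Avil (0.32), 6330403A02Rik (0.383), the lectin gene Cd209e (0.405) and the hormone precursor Sct (0.406). Pgam2 was at 59.1 and 53.1 RPKM in dF1, compared with 17 and 21.4 in wt and 12.5 in dF4. Cd209e was lower in level, at 6.4 and 9.3 RPKM in dF1, against 2.4 and 1.4 in wt and 0.9 in dF4. Avil, 6330403A02Rik and Sct were near the floor, at 0.1 to 1.1 RPKM in wt and listed at 0 in dF4. Their likeness to Cd8a over wt and dF4 thus depends on the added 1 RPKM and the depth.

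For Cd4 no transcript came within 0.5 of its pattern, whereas 18 did for Cd8a and 7093 of 12214 for Cd8b1. The nearest to Cd4 were Cdh1, which encodes E-cadherin (0.514), Olfr164 (0.529), Pnck (0.561), A430084P05Rik (0.597) and Paqr5 (0.613). They share its low value in dF4, where Cdh1 was at 0.4 RPKM and Olfr164, Pnck and Paqr5 were listed at 0. Olfr164 was also higher in dF1, at 28.2 and 32.6 RPKM against 16.9 and 17.5 in wt. The nearest to Cd8b1, Pex3 (0.073), Crem (0.082), 2810021B07Rik (0.096), Klra6 (0.11) and Zfp87 (0.113), all had a mean below that of Cd8b1 in wt and dF1. Between the co-receptor genes themselves the same measure was 1.84 for Cd4 and Cd8a, 2.16 for Cd4 and Cd8b1 and 1 for Cd8a and Cd8b1.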

How the data were processed

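The deposited values are RPKM per RefSeq transcript, per the file headers, written by the authors to 1 decimal. TopHat, bedtools and build mm9 are named in the submitters' processing notes. Versions, strandedness and how multiply mapped reads were counted are details not given in the sources used here. 1 line that named no gene was left out, and 0 per-sample columns were unused. Transcript lengths are as deposited, in bases. The co-receptor genes, the 8 gene lists and the tests were chosen with earlier results of these data known.

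Differences were computed on log2(RPKM + 1). The 2 dF1 and 2 wt libraries were compared by a two-sided moderated test with a variance trend (limma 3.58.1, R 4.3.3), adjusted after Benjamini and Hochberg over the 12215 transcripts whose mean reached 1 RPKM. The script was tested on simulated data. A gene entered a list by its transcript with the highest mean. From each list the 6 highest and the 4 most different genes could be named, besides genes the naming rule lists by symbol, and others were chosen after their values were seen (Themis, Bcl11b, Xcr1, Itgae, Tlr3, Batf3, H2-T3, Ccr9, Cd300c and Runx1). In dF4, values times length were multiples of 1.674 (in RPM, reads scaled to library size) for 82% of 3521 low values (within 0.1 read), which gave its depth. The other libraries showed no such step. Gene order comes from RefSeq (GRCm38.p6), not the build of the values, and is used for order only.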

Additional observations from a re-analysis of the deposited data

How the results depend on the processing

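The dF1 minus wt differences of Cd4, Cd8a and Cd8b1 moved by less than the spread between replicates under other pseudocounts (0.1 and 5), median centring and quantile normalization. Leaving out 1 library gave 0.85 to 1.35 for Cd4, 1.79 to 2.25 for Cd8a and -0.53 to 0.37 for Cd8b1. Without wt replicate 2 the values were 1.14 for Cd4 and 2.08 for Cd8a. For Cd4 in dF4 the difference of -5.17 became -5.51 and -4.24 with pseudocounts of 0.1 and 5, -5.24 with median centring and -5.34 with quantile normalization, and the cause of the last 2 shifts was not tested. The count of calls between dF1 and wt was 0, with 875 at an unadjusted p under 0.05. It was 245 with no filter, of which 233 had a mean under 1 RPKM, 25 with a filter at 5 RPKM and 33 with robust variances. The cause of the latter changes was not tested. It stayed 0 under the other settings, including each left-out replicate and a filter over the wt and dF1 libraries alone, a setting chosen after seeing the data.

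The replicate numbers are shared labels only. Replicate 2 minus replicate 1 correlated at 0.305 across transcripts between wt and dF1, and with the replicate number as a block 0 transcripts were called. With 1 library left out, list medians ranged from -0.093 to 0.58 (CD3 and T cell receptor signalling), -0.094 to 0.13 (regulators), 0.11 to 0.36 (ligands), -0.39 to 0.12 (CD8 positive dendritic cell), -0.006 to 1.06 (NK), -0.43 to 0.41 (proB), -1.62 to 0.34 (neutrophil) and -0.19 to -0.089 (pDC). The cause was not tested. The table held 1 row for Cd8a, so the ratio to other Cd8a transcripts was not run. The depth of dF4 limits Cd4 there to about 6 reads.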
